A study of Homo sapiens with 4 samples.

Results

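STIP1, the 2 cytosolic forms of HSP90 and their helper proteins were examined with and without rhSTIP1 in SKOV3, an established cell line from a human ovarian carcinoma. The 10 genes were STIP1, HSP90AA1, HSP90AB1, HSPA8, PTGES3, AHSA1, CDC37, FKBP4, FKBP5 and STUB1, and every probe set that the array annotation assigned to them was taken. Of 54613 probe sets other than controls, 21 carried the symbol of exactly 1 of these genes and covered 8 of them. The only probe sets that named HSPA8 were 4 that also named the small nucleolar RNAs SNORD14C and SNORD14D, and they were kept apart. The expression of AHSA1 was not analysed here. The control group was 2 arrays of cells without rhSTIP1, and the treated group was 2 arrays of cells given rhSTIP1, read as recombinant human STIP1. For all 4 arrays total RNA was extracted with TRIZOL and the label was biotin, with 1 array per sample. The sources used here give neither dose nor duration. It is not stated whether the 2 arrays of each group stand for separate cultures, so every p-value refers to the spread between these arrays, which may be technical.

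HSP90 is an ATP-driven chaperone that holds kinases, steroid receptors and other client proteins in a form that can be activated. STIP1, also called HOP, has tetratricopeptide repeat (TPR) domains that bind the C-terminal tails of HSP70 and HSP90 and so bring a client from the first to the second. CDC37 brings kinases to HSP90, PTGES3 (p23) binds its closed form, AHSA1 stimulates its ATPase, FKBP4 and FKBP5 are immunophilins of steroid receptor complexes, and STUB1 (CHIP) is a ubiquitin ligase that marks chaperone-bound proteins for breakdown. STIP1 is also found outside cells, and the arrays measure transcripts only, so protein given to the cells is not seen by them.

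Genes of this machinery are known targets of heat shock factors, which bind inverted repeats of the letters GAA called heat shock elements. The RefSeq promoter windows (GRCh38.p14, 250 bases before to 50 after a transcription start) held an entry for 8 of the 10 genes, 14 windows in all. A 3-unit element, written as GAANNTTCNNGAA or its reverse complement TTCNNGAANNTTC with N any base, was present in 3 of the 14 windows, against 172 of 35116 windows of all genes (0.49%). Those windows belonged to HSP90AA1, HSP90AB1 and HSPA8. The shorter 2-unit element, GAANNTTC or TTCNNGAA, each its own reverse complement, was present in 4 of the 14 windows and in 13.5% of all windows. Every 3-unit match also holds the 2-unit letters, and the added window was that of STIP1. The sequences below show those matches in capitals, each 5′ to 3′ on the strand of the gene.
HSP90AA1, chr14:102087100-102087152, minus strand: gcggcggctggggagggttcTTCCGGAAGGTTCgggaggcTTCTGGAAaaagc
HSP90AB1, chr6:44247758-44247863, plus strand: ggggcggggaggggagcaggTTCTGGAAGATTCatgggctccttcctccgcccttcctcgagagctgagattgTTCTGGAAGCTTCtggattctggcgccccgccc
HSPA8, chr11:123062159-123062211, minus strand: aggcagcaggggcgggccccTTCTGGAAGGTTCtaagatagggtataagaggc
STIP1, chr11:64186173-64186202, plus strand: cttctagtaggTTCCAGAAggcggcgcgtg

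The 3-unit element of HSP90AA1 lay 88 to 76 bases before the start, those of HSP90AB1 165 to 153 and 112 to 100 bases before it, and that of HSPA8 shown here 55 to 43 bases before it. The 2-unit match of STIP1 lay at bases 14 to 21 from the start, inside the transcript. Each position counts from the start of the window that holds the match. The other windows of STIP1, HSP90AA1 and HSP90AB1, at other annotated starts, held neither motif. HSP90AB1 and HSPA8 each had 2 of the 3-unit matches. The windows of PTGES3, AHSA1, CDC37 and FKBP5 held neither motif, which says only that these letters are not in those windows. FKBP4 and STUB1 were not searched. A match is a run of letters and not a measured site of binding.

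Each value is the MAS5 signal of a probe set, which combines its probes on 1 array and is scaled so that all arrays share a common mean. Probe sets whose mean signal over the 4 arrays reached 69.4, the median of all, were tested. The arrays carried the marks of an epithelial line. All 8 epithelial and ovarian carcinoma markers, among them KRT7, KRT8, EPCAM and PAX8, reached the level of testing, and their summed signal lay between 49577 and 55435 on every array. Summed signals were 265 to 494 for 4 fibroblast markers, of which COL1A1 and DCN reached that level, 136 to 301 for 3 endothelial markers, of which PECAM1 reached it, and 66.5 to 191 for 4 leukocyte markers, of which 0 reached it. No marker was listed at 0. The ratio of 3′ over 5′ signal for ACTB, a measure of RNA integrity, was 8.79 on rhSTIP1 array 2. It lay between 2.45 and 2.74 on the other arrays. That of GAPDH was also highest on rhSTIP1 array 2, at 1.32, against 0.987 to 1.16 on the others.

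None of the members' probe sets passed the test for a difference with rhSTIP1. Of the 21, 18 reached the level of testing. A log2 fold change is the mean log2(signal + 16) of the rhSTIP1 arrays minus that of the controls, with the standard error of limma's fit after the ± sign. The median over the 18 was 0.03, against 0.00 over all 27307 probe sets tested. Of the 18, 11 lay above 0 and 7 below, from −0.54 to 0.25. At an adjusted p of 0.05 limma called 0 of the 18 and 0 of 27307 overall (0.00%). At an unadjusted p under 0.05 it called 1 of the 18, a probe set of HSP90AA1, against 3.22% of all tested. The control and rhSTIP1 arrays did not overlap for 2 of the 18, both lower with rhSTIP1, and for 0 in the other direction. The background for that count was 15.4% lower and 12.8% higher, so the members' share was no larger than that of the array as a whole. A difference of at least 1.5-fold with no overlap was seen for 0 of the 18, and over all tested for 2.07% higher and 4.35% lower. Every adjusted p of a member was 0.9998. For a single value in groups of 2 the smallest p of an exact permutation test, two-sided, is 0.333.

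**Figure D1:**
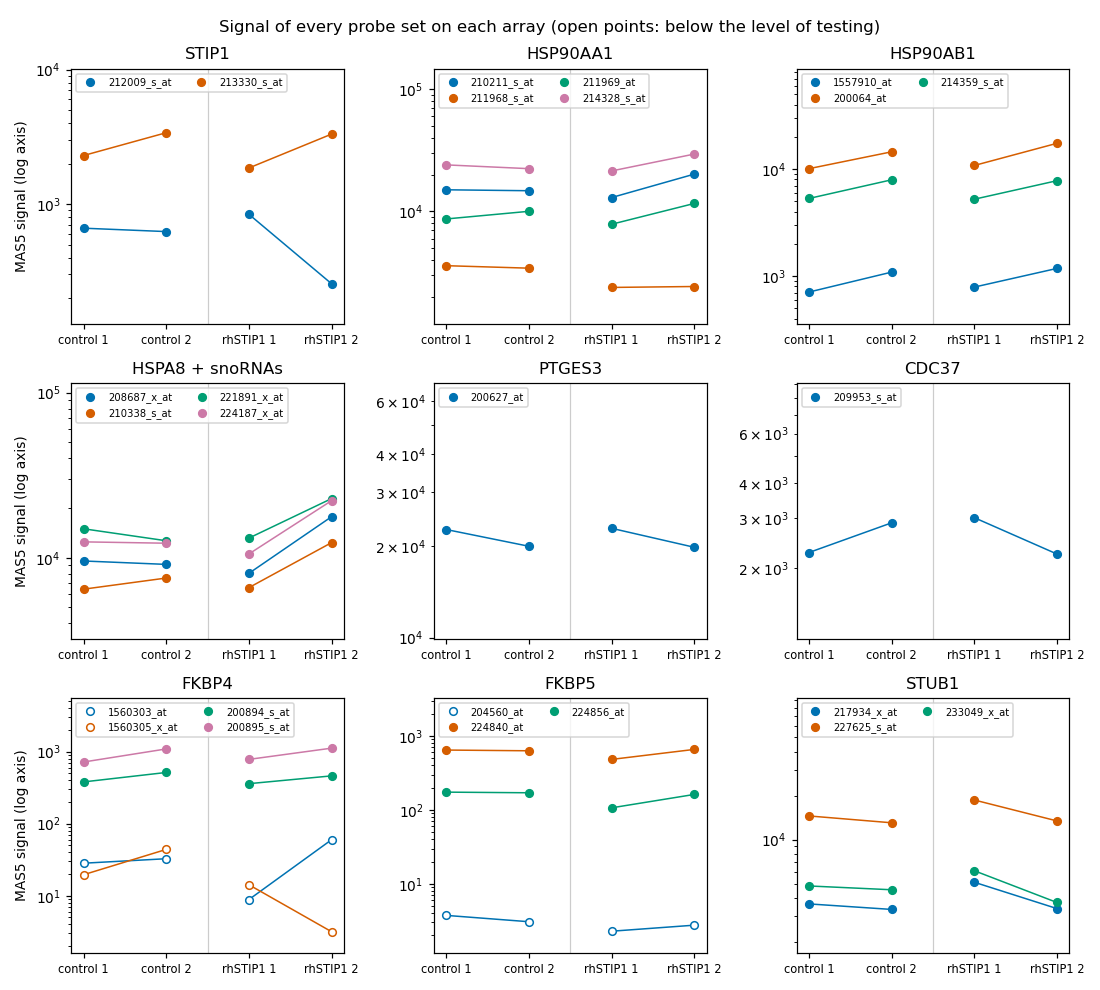
MAS5 signal (log axis) of every probe set of the members on the 4 arrays, 1 panel per gene, with lines joining the 2 arrays of a group and open points for the 3 probe sets below the level of testing. The probe sets of HSP90AB1 and FKBP4 that were tested are higher on array 2 than on array 1 in both groups, while STIP1 212009_s_at is at 255 on rhSTIP1 array 2 and HSP90AA1 211968_s_at is lower on both rhSTIP1 arrays.

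STIP1 itself was measured by 2 probe sets, whose patterns over the 4 arrays differed. Probe set 213330_s_at, the brighter, read 2298 and 3397 in the controls, against 1857 and 3317 with rhSTIP1. The groups overlapped, array 2 being the higher in both groups, and the log2 fold change was −0.17 ± 0.34 (SE, n = 2 per group, 95% confidence interval −0.95 to 0.62). Probe set 212009_s_at had 661 and 624 in the controls but 838 and 255 with rhSTIP1. The rhSTIP1 arrays thus lay on either side of both controls, and the log2 fold change was −0.45 ± 0.49 (−1.59 to 0.68).

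Control arrays 1 and 2 had a log2 ratio of 212009_s_at to 213330_s_at of −1.77 and −2.41, and the ratio of the rhSTIP1 arrays was −1.13 for array 1 and −3.62 for array 2. That range of 2.49 was larger than for any other pair of tested probe sets of the same member, the next being 0.99 for a pair of HSP90AA1. The array with the lowest ratio was the one on which the 5′ probe set of ACTB was lowest, at 3167 against 7531 to 9172 on the others. The part of RNA integrity in the STIP1 values was not tested. Both intervals include a 1.5-fold change in either direction (0.58 on the log2 scale), so neither an increase nor a decrease of STIP1 transcript of that size was resolved.

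HSP90AA1, the form of cytosolic HSP90 known to be heat-inducible, had 4 probe sets, and 1 of them differed from the others. Probe set 211968_s_at read 3597 and 3432 in the controls, against 2389 and 2431 with rhSTIP1. Both rhSTIP1 arrays lay below both controls, the controls differed from each other by −0.07 and the rhSTIP1 arrays by 0.02 on the log2 scale. Its log2 fold change of −0.54 ± 0.22 (95% confidence interval −1.05 to −0.03) had an unadjusted p of 0.0409 and an adjusted p of 0.9998 by limma. The unadjusted p by limma was 0.0629 with median centring and 0.0686 with eBayes run without a trend. It stayed under 0.05 with the other alternatives that used all 4 arrays and fitted this probe set by itself. These ran from 0.00953 (replicate number as a block, adjusted p = 0.316) to 0.0471 (filter at the 70th percentile). The fits with 1 probe set per gene and with the mean of a gene's probe sets did not include it by itself. In both, 0 members had an unadjusted p under 0.05 by limma. With each array left out in turn the log2 fold change ran from −0.57 to −0.51. An absolute change larger than that of the main fit was common, being found for 10.2% of all probe sets tested.

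The other 3 probe sets of HSP90AA1 overlapped between groups. Probe set 214328_s_at, the brightest, had 23986 and 22339 in the controls, against 21404 and 29402 with rhSTIP1, giving a log2 fold change of 0.12 ± 0.18. Probe set 210211_s_at had 15009 and 14746 against 12972 and 20155, or 0.12 ± 0.22. Probe set 211969_at had 8670 and 10011 against 7847 and 11604, or 0.03 ± 0.23. On each of these 3 the lowest array was rhSTIP1 array 1 and the highest was rhSTIP1 array 2. The log2 ratio of 210211_s_at to 211968_s_at was 2.06 and 2.10 in the controls, against 2.43 and 3.04 with rhSTIP1, so the probe sets of this gene gave different accounts of the treated arrays. The lower level of 211968_s_at was therefore not shared by the gene's other probe sets. Which transcripts each probe set reads was not determined.

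HSP90AB1, the constitutive form, had 3 probe sets that followed each other closely. Probe set 200064_at had 10084 and 14493 in the controls, against 10797 and 17402 with rhSTIP1. Probe set 214359_s_at had 5308 and 7932 against 5222 and 7781. Probe set 1557910_at had 708 and 1087 against 787 and 1177. In each the signal of array 2 was above that of array 1 within both groups, by 0.52 to 0.61 in the controls, against 0.57 to 0.69 with rhSTIP1 on the log2 scale. The log2 fold changes with rhSTIP1 were smaller than these steps, at 0.18 ± 0.27, −0.03 ± 0.28 and 0.13 ± 0.33. They compare means of 2 arrays, and so are not on the same footing as a step between single arrays. The 95% confidence interval of 200064_at ran from −0.45 to 0.81.

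HSPA8, the constitutive HSP70 whose clients STIP1 brings to HSP90, was covered only through the 4 probe sets shared with its intronic small nucleolar RNAs. Of these probe sets, 3 are of a kind (suffix x_at) whose probes can match other sequences. The signals of all 4 are given for the group of genes and not for HSPA8 alone. Probe set 208687_x_at had 9553 and 9109 in the controls, against 8049 and 17727 with rhSTIP1. Probe set 224187_x_at had 12473 and 12241 against 10544 and 22173. Probe set 221891_x_at had 14968 and 12666 against 13153 and 22823, and 210338_s_at had 6449 and 7533 against 6593 and 12348.

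On all 4 of them rhSTIP1 array 2 was the highest array, and rhSTIP1 array 1 lay below at least 1 control, so the groups overlapped. Relative to the mean of the controls, rhSTIP1 array 2 was higher by 0.73 to 0.93 and rhSTIP1 array 1 was between −0.23 and −0.07 on the log2 scale. The log2 fold changes, from 0.31 ± 0.31 to 0.37 ± 0.30, therefore came from 1 array, the one with the ACTB ratio of 8.79. Unadjusted p by limma lay between 0.241 and 0.358. The part of RNA integrity in this difference was not tested.

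**Figure D2:**
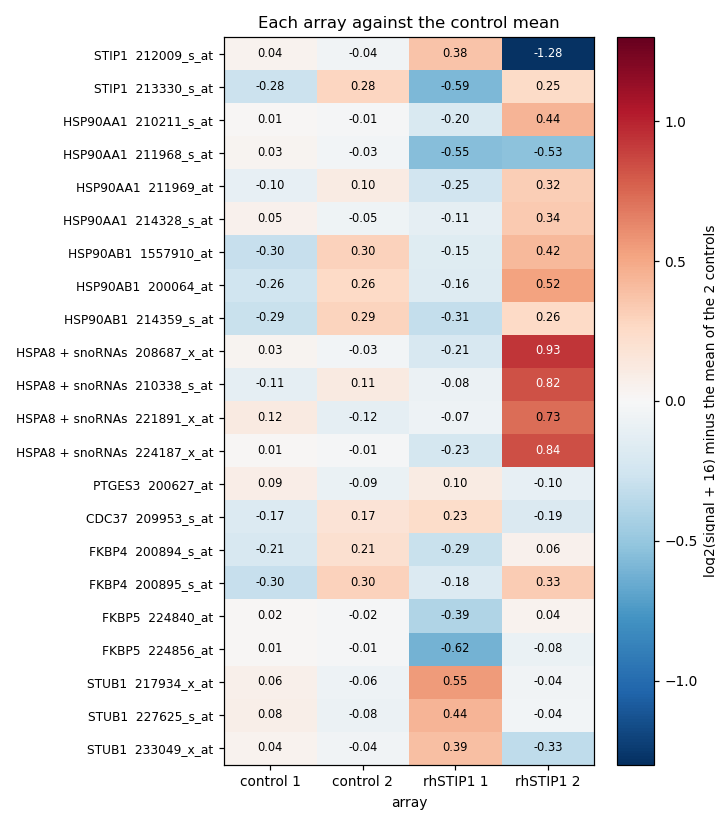
Difference of each array from the mean of the 2 controls, in log2(signal + 16), for the 22 tested probe sets (rows) on the 4 arrays (columns), with the value printed in each cell. The shared HSPA8 probe sets reach 0.73 to 0.93 on rhSTIP1 array 2 only, and HSP90AA1 211968_s_at has nearly equal values, −0.55 and −0.53, on the rhSTIP1 arrays.

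PTGES3, the p23 cochaperone that stabilises client-bound HSP90, had the smallest range over the 4 arrays of the 18 tested probe sets. Its single probe set, 200627_at, had 22664 and 19968 in the controls, against 22876 and 19818 with rhSTIP1. The log2 fold change of 0.00 ± 0.16 had a 95% confidence interval of −0.36 to 0.37, which lies within a 1.5-fold change in both directions. Such an interval was found for 3 of the 18, the other ones being 211969_at and 214328_s_at of HSP90AA1. These intervals depend on the trend in eBayes. Without it the standard errors of the 3 were 0.26, 0.30 and 0.28 in that order, against 0.16, 0.23 and 0.18 with it. Intervals were not computed without the trend. CDC37, the kinase-specific cochaperone, had 2270 and 2893 in the controls, against 3018 and 2243 with rhSTIP1 on 209953_s_at. Both its highest and its lowest array were treated ones, and the log2 fold change was 0.02 ± 0.26 (−0.59 to 0.63).

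FKBP4, the immunophilin that links steroid receptors to the motor protein dynein, had 4 probe sets of which 2 were tested. Probe set 200895_s_at had 718 and 1090 in the controls, against 780 and 1117 with rhSTIP1, giving a log2 fold change of 0.08 ± 0.32. Probe set 200894_s_at had 380 and 514 against 359 and 461, or −0.12 ± 0.29. As with HSP90AB1, array 2 was the higher in both groups, by 0.42 and 0.59 in the controls. The remaining 2 probe sets, 1560303_at and 1560305_x_at, had signals between 3.17 and 60.0 and were not tested.

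FKBP5, which hinders hormone binding by steroid receptors and is itself induced by glucocorticoids, had 2 tested probe sets. Probe set 224856_at had 174 and 171 in the controls, against 107 and 162 with rhSTIP1. Both rhSTIP1 arrays lay below both controls, but array 2 only by −0.08 relative to the control mean against −0.62 for array 1, and the log2 fold change was −0.35 ± 0.33. Probe set 224840_at had 647 and 632 against 483 and 660, an overlap, with −0.17 ± 0.28. On both probe sets rhSTIP1 array 1 was the lowest of the 4. The remaining probe set, 204560_at, had signals from 2.28 to 3.74 and was not tested.

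STUB1, the ubiquitin ligase, had 3 tested probe sets, all highest on rhSTIP1 array 1. Probe set 227625_s_at had 14521 and 13038 in the controls, against 18666 and 13428 with rhSTIP1, giving a log2 fold change of 0.20 ± 0.20. Probe set 217934_x_at had 3635 and 3333 against 5114 and 3378, or 0.25 ± 0.26. Probe set 233049_x_at had 4823 and 4542 against 6130 and 3719, or 0.03 ± 0.27. On all 3, rhSTIP1 array 2 lay below control array 1, so the groups overlapped.

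**Figure D3:**
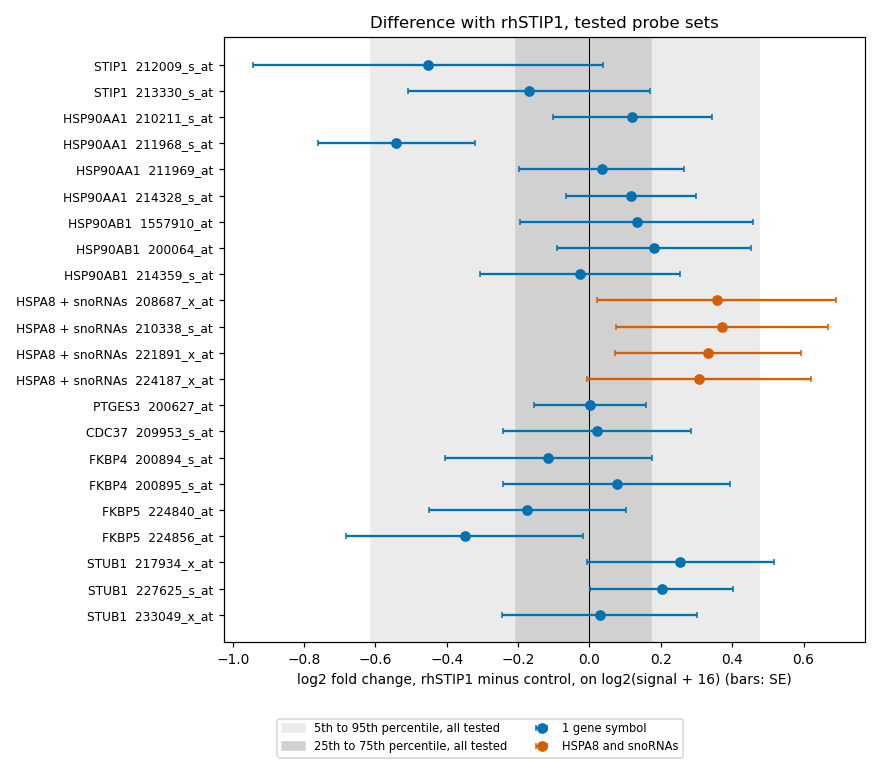
Log2 fold change, rhSTIP1 minus control, on the log2(signal + 16) scale for the 22 tested probe sets, with bars for the standard error (n = 2 arrays per group) and grey bands for the middle 50% and 90% of all probe sets tested. The values run from −0.54 (HSP90AA1 211968_s_at) to 0.37 (210338_s_at of HSPA8 and small nucleolar RNAs), all inside the wider band of −0.61 to 0.47.

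The members varied more between the rhSTIP1 arrays than between the controls. Over the 18 tested probe sets the median absolute log2 difference was 0.55 between the rhSTIP1 arrays and 0.17 between the controls, against 0.33 and 0.31 over all probe sets tested. The median absolute log2 fold change between the groups was 0.13 for the members and 0.19 over all. It compares means of arrays, and so is not on the same footing as a difference of single arrays. Between control array 1 and rhSTIP1 array 1 the median absolute difference was 0.26 for the members and 0.27 over all. Between the arrays numbered 2 it was 0.13 and 0.23. The rhSTIP1 arrays differed by at least 1.5-fold for 6 of the 18, namely both of STIP1, 210211_s_at of HSP90AA1, 200064_at of HSP90AB1 and 217934_x_at and 233049_x_at of STUB1. Over all probe sets tested 24.0% differed that much. On rhSTIP1 array 2 the probe sets of HSP90AB1, FKBP4, FKBP5, 213330_s_at of STIP1 and all 4 probe sets of HSP90AA1 were above rhSTIP1 array 1. Those of STUB1, CDC37, PTGES3 and 212009_s_at of STIP1 were below it. Probe sets of 1 gene share their transcripts and are not independent of each other.

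The wider chaperone machinery was described with 68 further genes in 5 lists, each gene by its brightest probe set. Of the 68, 61 were tested. Their median log2 fold change was 0.00, with 31 above 0 and 30 below. Limma called 0 of them at an adjusted p of 0.05, and 1 was higher and 0 were lower at an unadjusted p under 0.05, against 0.976% and 2.44% of all 12296 genes. HSP70 and HSP90 paralogues had a median of 0.16 over 10 tested genes. HSPA2, a member of the HSP70 family best known from the testis, had 1408 and 1464 in the controls, against 2029 and 3088 with rhSTIP1, both above both controls. Its log2 fold change was 0.80 ± 0.28 (limma, unadjusted p = 0.0223, adjusted p = 0.9998), and it was the only one of the 61 separated by at least 1.5-fold, where 1.90% of all genes were separated higher and 3.79% lower. Without rhSTIP1 array 2 the value of HSPA2 was 0.49. HSPA5, the HSP70 of the endoplasmic reticulum, had 10939 and 23543 against 21773 and 25214, or 0.55 ± 0.32. Its single control arrays lay further apart than the means of the groups, which is not a comparison on the same footing. HSPA9, the mitochondrial HSP70, had 0.32 ± 0.23, and HSPA13 had 0.44 ± 0.32.

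Partners of HSP70 had a median of 0.08 over 17 genes. The nucleotide exchange factor BAG5 had 4908 and 5015 in the controls, against 3355 and 4343 with rhSTIP1, −0.38 ± 0.23, and the J-domain protein DNAJB4 had 0.35 ± 0.27. The HSP70-binding factor HSPBP1 had 0.31 ± 0.27 and BAG2 −0.25 ± 0.25. None of these passed. HSP90 cochaperones that, like STIP1, carry TPR domains had a median of −0.05 over 14 genes, with 5 above 0 and 9 below. FKBP8, an immunophilin of the mitochondrial membrane, had 0.42 ± 0.28 and UNC45A, the chaperone of myosin, 0.28 ± 0.26. DNAAF4 had 0.28 ± 0.28 and TTC9C −0.44 ± 0.38. The other list of HSP90 cochaperones had a median of −0.06 over 18 genes, 6 above 0 and 12 below. CHORDC1 had −0.33 ± 0.26 and AHSA2P, a relative of AHSA1, 0.32 ± 0.28. FNIP1 and FNIP2, partners of folliculin, had 0.31 ± 0.28 and 0.45 ± 0.40. HSF1, the main factor that binds heat shock elements, had 608 and 842 in the controls, against 802 and 862 with rhSTIP1, 0.21 ± 0.28, and the groups overlapped. HSBP1, which binds it, had 0.00 ± 0.27.

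**Figure D4:**
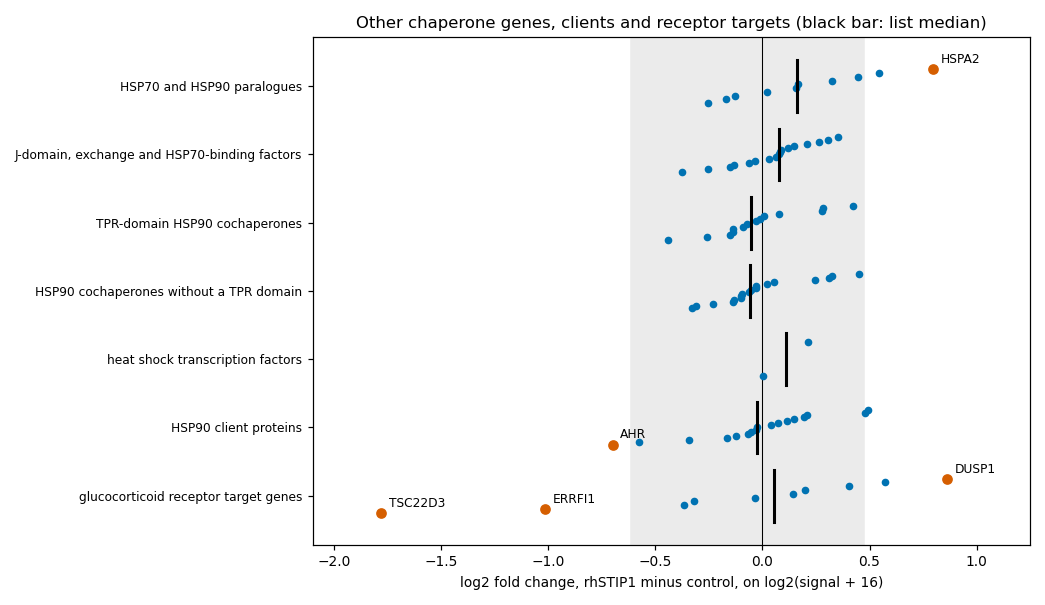
Log2 fold change, rhSTIP1 minus control, on the log2(signal + 16) scale, for each tested gene (point) of 7 lists, with the list median as a black bar, the middle 90% of all probe sets tested in grey and genes with an unadjusted p under 0.05 in orange. The medians lie between −0.06 and 0.16, and the 5 orange genes are HSPA2, AHR, DUSP1, ERRFI1 and TSC22D3.

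Transcripts of proteins that HSP90 is known to hold were also examined, with a median of −0.03 over 17 tested genes. AHR, the aryl hydrocarbon receptor, had 1214 and 1770 in the controls, against 773 and 1041 with rhSTIP1, both below both controls, −0.70 ± 0.30 (limma, unadjusted p = 0.0494, adjusted p = 0.9998). Without control array 2 the value was −0.43. AHR was the only client gene with an unadjusted p under 0.05, against 2.44% of all 12296 genes that were lower by this measure and 0.976% that were higher. NR3C2, the mineralocorticoid receptor, had −0.58 ± 0.29 and the kinase MET −0.34 ± 0.23, each lower on both rhSTIP1 arrays without passing. The growth factor receptor IGF1R had 0.49 ± 0.39. ERBB2, a receptor that SKOV3 cells are known to overexpress, had 10933 and 12799 against 9641 and 15302, 0.04 ± 0.24, and was named after its values were seen.

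FKBP5 is a known target of the glucocorticoid receptor, so 11 other targets with a probe set were set beside it. Of these 10 were tested, 5 above 0 and 5 below, with a median of 0.05. Limma called 0 at an adjusted p of 0.05, and 1 higher and 2 lower at an unadjusted p under 0.05, against 0.976% and 2.44% of all 12296 genes. By at least 1.5-fold with no overlap 1 was separated higher and 2 lower, against 1.90% and 3.79% of all genes. The targets were chosen with earlier results of these data known. TSC22D3, the glucocorticoid-induced leucine zipper, had 7693 and 2727 in the controls, against 1559 and 1123 with rhSTIP1. Its log2 fold change was −1.78 ± 0.46 (limma, unadjusted p = 0.00477, adjusted p = 0.9998). The controls of this gene differed more from each other than the rhSTIP1 arrays did. ERRFI1, a feedback inhibitor of EGF receptors, had −1.02 ± 0.42 (limma, unadjusted p = 0.0419). DUSP1, a phosphatase of MAP kinases, had 0.86 ± 0.32 (limma, unadjusted p = 0.0292). Leaving out the first control array gave −1.03 for TSC22D3, and leaving out the second gave −2.52. ERRFI1 was −0.32 without rhSTIP1 array 1 and −1.71 without rhSTIP1 array 2, and DUSP1 was 1.32 and 0.40 in the same order. GADD45B had 0.57 ± 0.53. The receptor gene NR3C1, also named after its values were seen, had −0.05 ± 0.24. The targets thus lay on both sides of 0, with FKBP5 between them.

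The genes whose pattern over the 4 arrays was closest to that of STIP1 probe set 213330_s_at, among 12295 others, were EHMT2, KCNG3 and NFE2L2, with root mean square differences of 0.01 to 0.02 in centred log2 signal. EHMT2, a histone methyltransferase, had 783 and 1167 in the controls, against 642 and 1121 with rhSTIP1, array 2 again being the higher in both groups. Of the other members FKBP4 came nearest, with 0.17, and 4.21% of all genes were closer than it. HSP90AB1 followed with 0.18 (5.60%), and STUB1 was the farthest with 0.56 (81.3%). With 4 arrays many genes match any pattern closely, so these values are a description of the arrays.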

How the data were processed

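The authors deposited 1 linear signal intensity per probe set and array; per the submitters' processing notes the software was Affymetrix Expression Console 1.1 with the MAS5 method. MAS5 scales each array to a common target; the mean after trimming 2% from each end was 500.1 on every array. Without detection calls, which were not used here, signal and background of dim probe sets are not separable. Of 54675 probe sets, 62 were control probe sets. Of the other 54613, 41091 had 1 gene symbol, 1801 several and 11721 none. Probe sets with a mean of at least 69.4, the median over all, were tested with limma 3.58.1 in R 4.3.3 (lmFit, eBayes with trend, 5.78 prior and 2 residual degrees of freedom) on log2(signal + 16). Tests were two-sided and adjusted by Benjamini-Hochberg over 27307 probe sets. A fold change on this scale understates that of dim genes. In simulated data with 27307 probe sets, limma found 3 of the 65 with a true 2-fold change, 41 of the 65 with a 4-fold and 59 of the 59 with a 16-fold change, and made 4 false calls. The number of arrays limits the precision. The members, gene lists, test and alternatives were chosen with earlier results of these data known. Named from each list were up to 4 genes with the smallest p, and for likeness to STIP1 the 3 closest genes. Alternatives covered pseudocount, filter, scaling, choice of probe set, eBayes trend, replicate block and leaving out each array. Promoter sequences are from RefSeq (GRCh38.p14).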

Additional observations from a re-analysis of the deposited data

How the results depend on the processing

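No member probe set passed an adjusted p of 0.05 under any alternative, and neither did any of the 61 other chaperone genes. With the replicate number as a block 261 of 27307 probe sets passed, against 0 without it; this block left every member uncalled but called TSC22D3 (adjusted p = 0.00136) and DUSP1 (adjusted p = 0.0482). The titles share numbers without saying that they mark a pairing; deviations of same-numbered arrays correlated with r = 0.35 over 27307 probe sets. Leaving out 1 array, which assumes that the lone array varies like the others, called 1 to 7 probe sets. The count separated by 1.5-fold, 1753, was 1114 with a pseudocount of 64, 6527 with no filter, 760 with a filter at the 70th percentile, 700 with 1 probe set per gene, 684 with the mean of a gene's probe sets and 3170 to 4670 with 1 array left out. The share of these that was lower, 67.8%, was 57.2% with median centring and 58.6% with quantile normalization. The members' median of 0.03 ran from −0.17 (without rhSTIP1 array 2) to 0.11 (without control array 2), and was −0.16 without control array 1. No member was called, so its sign carries no call. Quantile normalization turned the sign of PTGES3 (−0.061), CDC37 (−0.0012), HSP90AA1 211969_at (−0.020), STUB1 233049_x_at (−0.022), ERBB2 (−0.047) and HSBP1 (−0.060), and median centring that of HSP90AB1 214359_s_at (0.015). When each array was left out in turn, log2 fold changes ran from −0.59 to 0.25 for STIP1 213330_s_at and −1.28 to 0.38 for 212009_s_at. They ran from −0.20 to 0.44, −0.25 to 0.32 and −0.11 to 0.34 for HSP90AA1 210211_s_at, 211969_at and 214328_s_at, and from −0.17 to 0.44, −0.16 to 0.52 and −0.31 to 0.26 for HSP90AB1 1557910_at, 200064_at and 214359_s_at. PTGES3 ran from −0.10 to 0.10, CDC37 from −0.19 to 0.23, FKBP4 200894_s_at from −0.33 to 0.095, 200895_s_at from −0.22 to 0.37 and FKBP5 224840_at from −0.39 to 0.044. STUB1 217934_x_at, 227625_s_at and 233049_x_at ran from −0.043 to 0.55, −0.035 to 0.44 and −0.33 to 0.39, and the shared 208687_x_at, 210338_s_at, 221891_x_at and 224187_x_at from −0.21 to 0.93, −0.080 to 0.82, −0.066 to 0.73 and −0.23 to 0.84. Other genes that turned were HSPA5 (−0.0069 to 1.098), HSPA9 (−0.0038 to 0.65), HSPA13 (−0.00064 to 0.89), TTC9C (−0.89 to 0.014), FNIP2 (−0.0052 to 0.90), HSF1 (−0.017 to 0.44), HSBP1 (−0.33 to 0.34), NR3C1 (−0.24 to 0.14), ERBB2 (−0.29 to 0.37), IGF1R (−0.091 to 1.08) and GADD45B (−0.14 to 1.29). HSP90AA1 211968_s_at, FKBP5 224856_at, HSPA2, AHR, TSC22D3, ERRFI1 and DUSP1 kept their sign under every alternative run on them; with 1 array left out FKBP5 224856_at ran from −0.62 to −0.082, HSPA2 from 0.49 to 1.096 and AHR from −0.97 to −0.43.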
